A study of Homo sapiens with 27 samples.

Results

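The 31 genes described here encode the enzymes and sterol sensors with which a cell makes cholesterol and fatty acids. They were taken by gene symbol from a table of 57992 genes, and each symbol matched a gene. The sterol branch has 23 genes: 7 enzymes of the mevalonate pathway, 11 enzymes that act on squalene and the sterol rings, and 5 genes of sterol sensing and transport. The fatty acid branch has 8 genes: 2 that supply acetyl-CoA, 2 that build palmitate, and 4 that desaturate or elongate fatty acids. RNA was sequenced from 3 human acute myeloid leukaemia lines, MOLM13, MV411 and SKNO1, with the aim of comparing CARM1-depleted cells with controls. CARM1, also called PRMT4, is an arginine methyltransferase that modifies histone H3 and other proteins. Each line had 3 libraries with a scramble shRNA, 3 with CARM1 hairpin 1 and 3 with CARM1 hairpin 2, all collected 3 days after lentiviral delivery of a constitutively expressed hairpin. SKNO1 cells alone were grown with 10 ng/mL GM-CSF, a myeloid growth factor, in all 9 of their libraries, so that line and supplement cannot be told apart. All cells carried a lentivirus, and each group is one established line, not primary leukaemia.

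Cholesterol is built from acetyl-CoA through mevalonate and the isoprenoid farnesyl diphosphate, which is joined to squalene, closed to lanosterol and trimmed to cholesterol. Fatty acid synthesis draws on the same acetyl-CoA, carboxylates it to malonyl-CoA and extends it to palmitate, which desaturases and elongases then modify. Both routes are regulated by the SREBP transcription factors, products of SREBF1 and SREBF2. When sterols are scarce, SCAP escorts the SREBPs to the Golgi for cleavage, and when sterols are plentiful, INSIG proteins hold SCAP in the endoplasmic reticulum. SREBPs bind sterol response elements next to NF-Y, which recognises CCAAT.

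The promoters of 5 members that recur in the results below are shown to place these elements. They are the 250 bases before the RefSeq transcription start (build GRCh38.p14, plus strand, all 5 genes lie on that strand), read 5′ to 3′. Capitals mark matches to the sterol response element letters TCACNCCAC and to CCAAT, or to its reverse complement ATTGG.
FDPS, chr1:155308616-155308865: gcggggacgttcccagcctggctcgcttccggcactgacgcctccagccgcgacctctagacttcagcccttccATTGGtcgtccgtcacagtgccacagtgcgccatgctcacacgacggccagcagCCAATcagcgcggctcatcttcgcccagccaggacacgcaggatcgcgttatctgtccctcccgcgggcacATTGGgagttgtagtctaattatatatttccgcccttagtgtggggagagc
MVK, chr12:109573544-109573793: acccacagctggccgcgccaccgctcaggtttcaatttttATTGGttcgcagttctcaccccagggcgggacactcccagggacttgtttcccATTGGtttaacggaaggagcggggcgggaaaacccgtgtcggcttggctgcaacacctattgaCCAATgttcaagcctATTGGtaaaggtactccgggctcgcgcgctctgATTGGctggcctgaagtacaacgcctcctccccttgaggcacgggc
MSMO1, chr4:165327419-165327668: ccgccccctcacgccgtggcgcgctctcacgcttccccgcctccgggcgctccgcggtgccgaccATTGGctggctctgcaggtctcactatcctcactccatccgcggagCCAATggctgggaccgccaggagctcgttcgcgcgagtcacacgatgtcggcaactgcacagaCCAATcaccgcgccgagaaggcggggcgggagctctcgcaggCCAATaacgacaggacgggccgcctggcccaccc
EBP, chrX:48521558-48521807: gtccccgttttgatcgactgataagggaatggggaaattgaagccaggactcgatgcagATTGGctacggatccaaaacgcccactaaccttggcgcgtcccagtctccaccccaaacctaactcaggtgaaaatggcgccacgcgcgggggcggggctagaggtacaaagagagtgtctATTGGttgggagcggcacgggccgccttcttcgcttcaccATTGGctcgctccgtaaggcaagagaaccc
SREBF2, chr22:41832855-41833104: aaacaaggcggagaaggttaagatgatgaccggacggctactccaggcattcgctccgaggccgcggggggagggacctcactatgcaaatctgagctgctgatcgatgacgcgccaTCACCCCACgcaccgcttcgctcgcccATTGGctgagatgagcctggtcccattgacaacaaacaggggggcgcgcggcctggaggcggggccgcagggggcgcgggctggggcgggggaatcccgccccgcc
MVK holds 5 CCAAT matches, MSMO1 4, FDPS and EBP 3 each, and SREBF2 1 beside its sterol response element, which begins at position -133 from the start.

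RefSeq windows of 300 bases, which run 250 before to 50 after a start, were found for 27 of the 31 members, 37 windows in all because several genes have more than one start. No window was used for ACAT2, FDFT1, SQLE or FASN. CCAAT, searched on both strands, was in 25 of the 37 member windows (67.6%) and in 34.6% of all 35116 windows. The sterol response element letters, also on both strands, were in 1 member window (2.7%), that of SREBF2, and in 1.13% of all windows. The palindromic E-box CACGTG was in 5 member windows (13.5%) and in 7.26% of all windows. None of these 3 motifs holds another. These matches describe letters in a window and were not measured as bound sites.

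The libraries held between 25063577 and 53291599 expected counts. No knockdown library of CARM1 reached the lowest scramble level of the same line. Hairpins 1 and 2 left 19.4% ± 6.76 and 16.3% ± 4.39 of the mean scramble level in MOLM13, 26.2% ± 1.17 and 13% ± 2.7 in MV411 cells, and in SKNO1 cells 42.5% ± 9.18 and 15.6% ± 0.501 (SD, n = 3 each). Part of CARM1, 19.9% of its exon bases, lies opposite exons of YIPF2, and whether counting used strand is not given. The myeloid and blood cell markers PTPRC, SPI1 and CD33 were present in all libraries, the lowest value being 20.74 CPM (counts scaled to library size) for SPI1. The T cell, B cell and fat cell markers CD3E, MS4A1 and ADIPOQ did not exceed 0.0521 CPM. Mitochondrial transcripts took 23.7% to 35.4% of the counts in MOLM13 and MV411 and 0.7% to 1.317% in SKNO1. Abundant structured RNAs took 12.4% ± 1.13 of the counts in MOLM13 scramble libraries and 18.3% ± 2.27 and 17.5% ± 4.29 with hairpins 1 and 2. In SKNO1 the shares were 18.6% ± 1.14, 24.7% ± 0.848 and 25.2% ± 3.01, and in MV411 12% ± 0.989, 15% ± 0.886 and 12.8% ± 1.49. With both kinds of RNA left out of the fit, 7 members in place of 6 passed in MOLM13, 2 again in MV411 and none again in SKNO1.

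All 31 members were expressed strongly enough to be tested in every comparison. Levels are given as CPM scaled by TMM across the 27 libraries, and levels of different genes were compared only after division by exon length (CPM per kb). By that measure SCD, the desaturase that makes oleate from stearate, had the highest scramble mean in each line, at 104.8 CPM per kb in MOLM13, 41.5 in MV411 and 86.0 in SKNO1. The lowest was HSD17B7, a sterol ketone reductase, at 1.67 in MOLM13, and ELOVL6, which extends palmitate to stearate, at 0.302 in MV411. In SKNO1 MVK, the mevalonate kinase, and ELOVL6 were lowest and nearly equal, at 2.074 and 2.075. In the scramble libraries some members differed between lines, although with both directions counted their share was below that of all tested genes in each pair of lines. SKNO1 scramble libraries exceeded MV411 scramble libraries for 14 of the 31 members and were lower for 1, ACACA, where 27.1% of all tested genes were higher, 28.4% lower and 55.5% either.

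HMGCS1, which makes HMG-CoA, the entry to the mevalonate pathway, stood at 161, 254 and 150 CPM in the SKNO1 scramble libraries and at 27.1, 18.7 and 27.1 CPM in those of MV411. The groups were far apart, with a log2 difference of 2.96 ± 0.48 (SE, adjusted p = 0.000271). ELOVL6 stood at 14, 18.2 and 13.2 CPM against 2.86, 1.83 and 1.91 CPM, a log2 difference of 2.79 ± 0.23. DHCR7, the last reductase of cholesterol synthesis, was at 61.6, 64.1 and 65.7 CPM in SKNO1 and at 12.3, 8.26 and 11.5 CPM in MV411, a log2 difference of 2.58 ± 0.35. STARD4, a sterol carrier, was also higher in SKNO1, by 2.51 ± 0.30. ACACA, the acetyl-CoA carboxylase, went the other way, with 57.8, 80.5 and 53.9 CPM in SKNO1 against 120, 99.9 and 105 CPM in MV411. Between MV411 and MOLM13, 8 members were lower in MV411 and 1, FADS1, was higher, where 16% of all tested genes were lower, 14.8% higher and 30.8% either. The largest of these differences was in ELOVL6, by -3.06 ± 0.23 on the log2 scale. Without MOLM13 scramble replicate 3, which stood low as described next, 21 members differed in that comparison. Against MOLM13, SKNO1 was higher for 6 members and lower for 5, where 27.2% of all genes were higher, 28.8% lower and 56% either, and 7 members passed without SKNO1 scramble replicate 1. FADS2, a desaturase of polyunsaturated fatty acids, led the higher ones at 2.12 ± 0.44 and ACACA the lower ones at -1.25 ± 0.16.

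In MOLM13, 2 of 23 sterol genes and 4 of 8 fatty acid genes fell with knockdown. Of the 31 members 6 fell and none rose, FDPS and EBP in the sterol branch and ACACA, FASN, SCD and ELOVL6 in the fatty acid branch, where 9.09% of all tested genes fell, 6.48% rose and 15.6% changed in either direction. The median log2 change was -0.67 over the members and 0.05 over all genes tested, and 29 members had a negative value. The share of the sterol branch that fell was near that of all genes. The median was -0.87 in the fatty acid branch and -0.63 in the sterol branch.

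ACACA, which makes malonyl-CoA, stood at 156, 155 and 140 CPM in the scramble libraries. It was at 80.5, 80.5 and 114 CPM with hairpin 1 and at 104, 101 and 83.6 CPM with hairpin 2. All 6 knockdown libraries lay below all 3 scramble libraries, a log2 change of -0.67 ± 0.14 (adjusted p = 0.00998). FASN, the synthase that turns malonyl-CoA into palmitate, was at 298, 322 and 136 CPM in scramble libraries, at 131, 133 and 96.9 with hairpin 1 and at 140, 143 and 84.6 with hairpin 2. Its change was -1.04 ± 0.26 (adjusted p = 0.0203), and scramble replicate 3 lay among the knockdown values. SCD showed the same arrangement, with 661, 735 and 290 CPM against 356, 163 and 200 and then 232, 167 and 275. It fell by 1.27 ± 0.30 on the log2 scale (adjusted p = 0.0159), 1 hairpin 1 library lying above scramble replicate 3. ELOVL6 was at 19.6, 20 and 14.6 CPM, at 14.1, 9.25 and 10.4 with hairpin 1 and at 11.8, 9.31 and 12 with hairpin 2. These groups did not overlap, and the change was -0.69 ± 0.17 (adjusted p = 0.0185).

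EBP, the sterol isomerase, stood at 40.9, 40.8 and 23.9 CPM in MOLM13 scramble libraries, at 24.2, 15.8 and 15.2 with hairpin 1 and at 15.4, 10.7 and 18.8 with hairpin 2. It fell by 1.07 ± 0.23 on the log2 scale (adjusted p = 0.0102), with hairpin 1 replicate 1 just above scramble replicate 3. FDPS, which makes farnesyl diphosphate, was at 97.9, 124 and 48.3 CPM, at 53.2, 39.8 and 51.9 with hairpin 1 and at 49.5, 30.5 and 45 with hairpin 2. Its change was -0.99 ± 0.25 (adjusted p = 0.0217), and scramble replicate 3 again lay within the range of the knockdown libraries. Taken singly, hairpin 1 passed the threshold in edgeR for ACACA alone (-0.72 ± 0.18, where 4.25% of all genes fell and 2.13% rose) and hairpin 2 for EBP alone (-1.22 ± 0.28, where 6.03% fell and 3.39% rose). DESeq2 called 7 members for hairpin 1 and 8 for hairpin 2, and edgeR without the low-count filter 13 and 19. The shares of all genes under these settings are not given here, so these counts are not read as particular to the members. With the replicate number as a block, ACACA no longer passed for hairpin 1 (adjusted p = 0.0696) and FASN did (-0.99, adjusted p = 0.022). FASN also passed for hairpin 2 under the block (-0.97, adjusted p = 0.0215).

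Scramble replicate 3 of MOLM13 stood apart in these genes. The mean of log2(CPM + 1) over the sterol branch, taken relative to the scramble mean, was -0.73 in that library and 0.33 and 0.40 in the other 2. Over the fatty acid branch it was -0.66 against 0.24 and 0.42. Hairpin 1 replicate 1 stood nearest to scramble, at -0.01 for the sterol branch, whereas the other 5 knockdown libraries lay between -1.08 and -0.36. The proliferation genes did not part the scramble libraries this way, with means of -0.12, 0.12 and 0.00. The count of 6 members depended on these libraries: 2 passed without scramble replicate 1, none without replicate 2, 13 without replicate 3, and 12 without hairpin 1 replicate 1. For hairpin 1, none passed without scramble replicate 1 or 2 or hairpin 1 replicate 2 and 3 without scramble replicate 3; for hairpin 2, none passed without scramble replicate 1 or 2 or hairpin 2 replicate 1 or 2, 3 without hairpin 1 replicate 1 and 5 without scramble replicate 3.

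**Figure D1:**
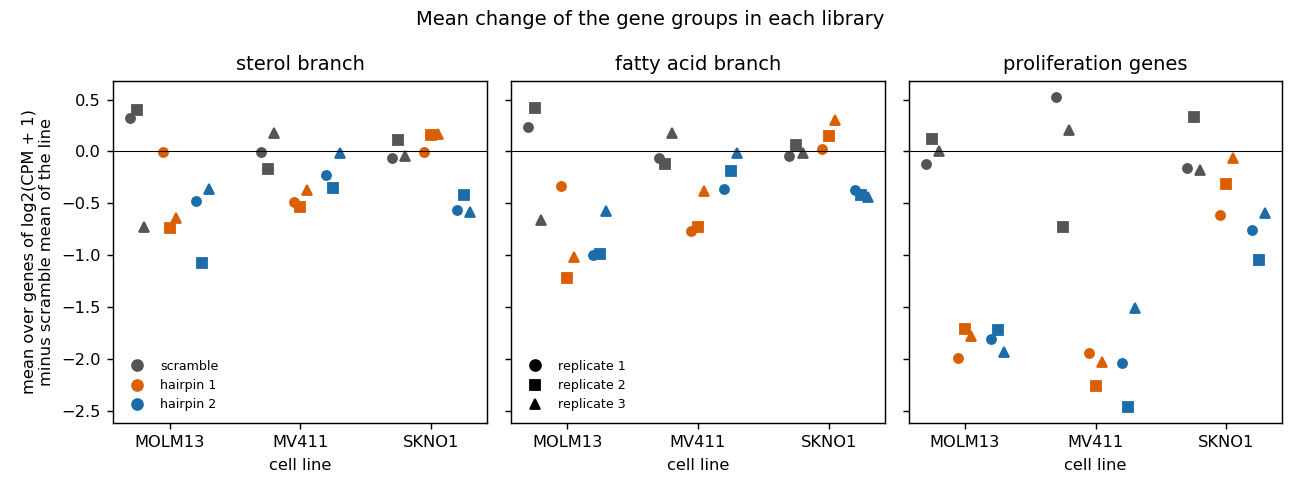
Mean of log2(CPM + 1) minus the line's scramble mean (vertical axis) for each library, over the sterol branch (23 genes), the fatty acid branch (8 genes) and 17 proliferation genes, by cell line (horizontal axis), with colours for the hairpins and marker shapes for the replicates. MOLM13 scramble replicate 3 sits at -0.73 in the sterol branch, among the knockdown libraries, while in SKNO1 only the hairpin 2 libraries sit apart from scramble.

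In MV411, 8 members fell with hairpin 1 and 3 with hairpin 2. With the hairpins pooled, FDPS and EBP fell and none rose, where 3.72% of all tested genes fell, 1.71% rose and 5.43% changed in either direction, and the median change of the members was -0.37 against 0.01 over all genes. With the replicate block SQLE fell as well (-0.64, adjusted p = 0.0294). Hairpin 1 lowered 8 members and raised none, where 4.13% of all genes fell and 2.37% rose. These were ACAT2, FDPS, FDFT1, LSS, EBP and DHCR7 in the sterol branch and the desaturases FADS1 and FADS2. Hairpin 2 lowered 3, FDPS, TM7SF2 and EBP, where 10.2% of all genes fell, a share near that of the members, and raised 1, ACSS2, where 8.38% rose.

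FDPS was at 76.4, 62.6 and 86.6 CPM in MV411 scramble libraries, at 48.1, 43.9 and 46 with hairpin 1 and at 36.7, 36.9 and 45 with hairpin 2. All 6 knockdown libraries lay below all scramble libraries, and the pooled change was -0.83 ± 0.14 (adjusted p = 0.00512). EBP stood at 21.4, 17.2 and 26.5 CPM, at 10.2, 9.88 and 12.2 with hairpin 1 and at 10.6, 10.9 and 17.6 with hairpin 2. It fell by 0.89 ± 0.20 on the log2 scale (adjusted p = 0.0249), with 1 hairpin 2 library above the lowest scramble library. Part of FDPS, 18.6% of its exon bases, lies opposite exons of RUSC1-AS1, and whether counting used strand is not given in the sources used here.

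DHCR7 showed the largest sterol change with hairpin 1. Its levels were 12.3, 8.26 and 11.5 CPM in scramble, 3.75, 2.91 and 4.6 with hairpin 1 and 6.96, 6.48 and 7.51 with hairpin 2. The 3 groups did not overlap: hairpin 1 changed it by -1.52 ± 0.22 (adjusted p = 0.00411), and hairpin 2 stood above hairpin 1 by 0.89 ± 0.22 (adjusted p = 0.0242). FDFT1, which joins farnesyl diphosphate to squalene, was at 166, 124 and 181 CPM, at 86.4, 81.7 and 88.6 with hairpin 1 and at 140, 133 and 149 with hairpin 2. Hairpin 1 lay below both other groups, by -0.89 ± 0.15 against scramble (adjusted p = 0.00714), and hairpin 2 lay within the scramble range. LSS, the cyclase that forms lanosterol, had 19.1, 25.6 and 26.1 CPM, then 13.4, 12.8 and 14.2, then 20.4, 25.2 and 21.5. It was arranged like FDFT1, with a change of -0.82 ± 0.16 for hairpin 1 (adjusted p = 0.0123) and a hairpin difference of 0.72 ± 0.16 (adjusted p = 0.0151).

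FADS1 and FADS2, neighbouring desaturases of polyunsaturated fatty acids, showed the same order in MV411. FADS1 stood at 98, 91.2 and 172 CPM in scramble, at 24.9, 31 and 50.9 with hairpin 1 and at 73.6, 83.5 and 156 with hairpin 2. Hairpin 1 lowered it by -1.77 ± 0.36 (adjusted p = 0.0148), and hairpin 2 exceeded hairpin 1 by 1.54 ± 0.35 (adjusted p = 0.0184). FADS2 was at 87, 88 and 131 CPM, at 25.4, 28.7 and 58.1 with hairpin 1 and at 67.9, 86.7 and 109 with hairpin 2. Its hairpin 1 change was -1.46 ± 0.31 (adjusted p = 0.0192), and hairpin 2 overlapped scramble. These genes share 490 exon bases on opposite strands, 4.79% of those of FADS1 and 4.44% of those of FADS2. SCD, at 213, 183 and 271 CPM in scramble, was at 91, 93.1 and 192 with hairpin 1 and at 130, 144 and 243 with hairpin 2, and neither hairpin passed without the replicate block (adjusted p = 0.16 and 0.45). With it SCD fell with hairpin 1 (-0.91, adjusted p = 0.00281) and with hairpin 2 (-0.44, adjusted p = 0.0448).

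A few members were higher with hairpin 2 in MV411. ACSS2, which makes acetyl-CoA from acetate, stood at 22.1, 21.3 and 24.4 CPM in scramble, 18.8, 22.1 and 17.8 with hairpin 1 and 30.4, 32.5 and 30.6 with hairpin 2. It rose by 0.44 ± 0.13 with hairpin 2 (adjusted p = 0.0383), whose libraries lay above all others. STARD4 was at 16.4, 8.93 and 12.2 CPM, at 9.37, 8.63 and 10.6 with hairpin 1 and at 21.5, 13.1 and 28.1 with hairpin 2. The hairpins differed by 1.12 ± 0.28 (adjusted p = 0.0245), although hairpin 2 did not pass against scramble (0.72 ± 0.27, adjusted p = 0.0944). TM7SF2, a sterol C14 reductase, went down with hairpin 2, from 7.25, 9.51 and 9.24 CPM to 5.7, 5.96 and 4.63, by -0.70 ± 0.19 (adjusted p = 0.0272). With hairpin 1 it was at 7.96, 9.44 and 6.9 CPM, overlapping scramble.

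Compared directly, hairpin 2 exceeded hairpin 1 in MV411 for 7 members and was lower for none, where 5.86% of all genes were higher and 5.62% lower. The 7 were FDFT1, LSS, DHCR7, STARD4, ACSS2, FADS1 and FADS2. In MV411 deviations from the group means correlated over 0.1 in every same-numbered pair of scramble with each hairpin. An unlike-numbered pair of scramble and hairpin 2 reached 0.258, so the numbers were not shown to pair those libraries. With the replicate number as a block 13 members passed for hairpin 1, all lower, and 14 for hairpin 2, 4 higher and 10 lower. The share of all genes that passed under the block is not given here. The additions for hairpin 1 were HMGCS1, SQLE, SREBF2, SCAP and SCD, and those raised by hairpin 2 under the block were INSIG1, STARD4 and ELOVL6 beside ACSS2. Those it lowered under the block beside FDPS, TM7SF2 and EBP were PMVK, SQLE, MSMO1, DHCR7, ACACA, FASN and SCD. Leaving out scramble replicate 3 gave 2 members for hairpin 1 and 1 for hairpin 2. Leaving out hairpin 1 replicate 1 or 2 gave 1 and 2 for hairpin 1, 2 and 2 for hairpin 2, and 0 and 1 for the difference between hairpins. That difference counted 4 members without hairpin 1 replicate 3, hairpin 2 replicate 1 or hairpin 2 replicate 3 and 11 without hairpin 2 replicate 2; without hairpin 2 replicate 1 the count for hairpin 2 was 1. The pooled count was 1 without scramble replicate 1 or 3, hairpin 1 replicate 1 or 2 or hairpin 2 replicate 1, and 4 without hairpin 2 replicate 2 or 3.

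**Figure D2:**
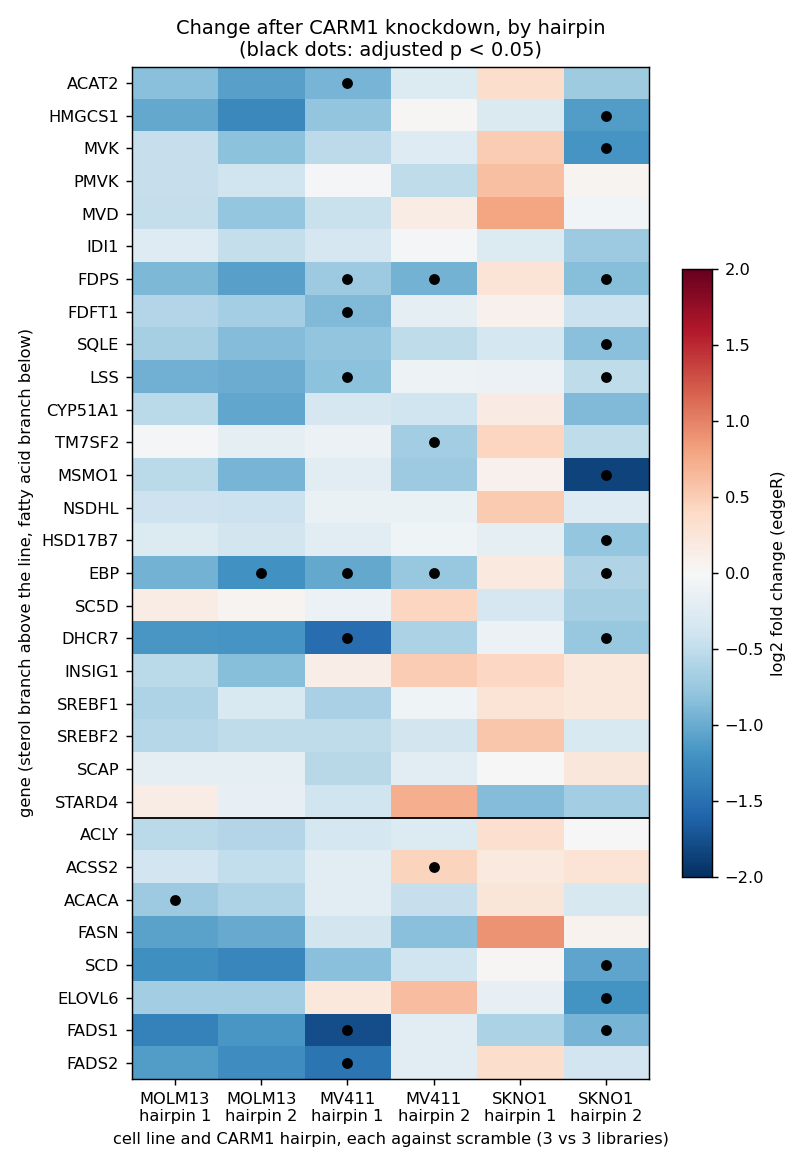
Log2 fold change of each of the 31 genes (rows, sterol branch above the line) for each hairpin against scramble in each cell line (columns, 3 libraries against 3), on a colour scale from -2 to 2, with a black dot where the adjusted p was under 0.05. The dots gather in MV411 with hairpin 1 (8 genes) and SKNO1 with hairpin 2 (12 genes), and SKNO1 with hairpin 1 has none.

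In SKNO1, hairpin 2 lowered sterol and desaturase genes and no member passed with hairpin 1 unless the replicate number was a block. Pooled over hairpins 4 members had an unadjusted p under 0.05 and DESeq2 called 1, and the shares of all genes by these measures are not given here. At the adjusted threshold in edgeR no member passed, where 0.0434% of all genes passed. That fit did not separate the hairpins, so any difference between them counted as spread. CARM1 itself did not pass in the pooled edgeR fit either (-1.80 ± 0.36, adjusted p = 0.0702), though it did with each hairpin. With hairpin 1 none passed in edgeR without the block, where 0.532% of all genes passed. For hairpin 1, 11 members had an unadjusted p under 0.05 and DESeq2 called 5. The shares of all genes by these measures are not given here either. With 1 library left out, hairpin 1 replicate 2, 1 member passed. The smallest hairpin 1 adjusted p belonged to FASN (0.083), whose log2 value was positive at 0.90 ± 0.21. With the block FASN (0.91, adjusted p = 0.0192) and MVD (0.78, adjusted p = 0.037) passed as higher, although the replicate numbers were not shown to pair these libraries. Hairpin 2 lowered 12 members and raised none, where 5.69% of all genes fell and 5.54% rose. These were HMGCS1, MVK and FDPS of the mevalonate pathway, SQLE, LSS, MSMO1, HSD17B7, EBP and DHCR7 of the sterol ring enzymes, and SCD, ELOVL6 and FADS1. The median over the members was -0.60 with hairpin 2 and 0.19 with hairpin 1, beside 0.00 and -0.02 over all genes.

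MVK, which phosphorylates mevalonate, was at 12.5, 14.3 and 13.6 CPM in SKNO1 scramble libraries, at 17.1, 18.8 and 22.2 with hairpin 1 and at 6.19, 6.6 and 5.23 with hairpin 2. The 3 groups did not overlap, hairpin 2 being lowest and hairpin 1 highest. Hairpin 2 changed it by -1.18 ± 0.17 (adjusted p = 0.00188), and hairpin 1 gave 0.52 ± 0.17, which did not pass (adjusted p = 0.156). MSMO1, a sterol methyl oxidase, stood at 43.9, 65.7 and 42.8 CPM, at 32.1, 88.4 and 42 with hairpin 1 and at 12.1, 19.9 and 10.9 with hairpin 2. It had the largest hairpin 2 change of the members, -1.85 ± 0.36 (adjusted p = 0.00799), and replicate 2 was the highest library in each group. FDPS was at 95.5, 121 and 90.3 CPM, at 128, 111 and 134 with hairpin 1 and at 61, 57.8 and 53.3 with hairpin 2. Only the hairpin 2 libraries lay below scramble, a change of -0.85 ± 0.17 (adjusted p = 0.00859).

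DHCR7 stood at 61.6, 64.1 and 65.7 CPM in SKNO1 scramble libraries, at 64.2, 50.5 and 64 with hairpin 1 and at 40.6, 38.1 and 36 with hairpin 2. Hairpin 2 lay below both other groups, by -0.75 ± 0.16 against scramble (adjusted p = 0.0104). SCD was at 476, 437 and 470 CPM, at 479, 439 and 503 with hairpin 1 and at 276, 218 and 180 with hairpin 2. Scramble and hairpin 1 overlapped throughout, and hairpin 2 lowered it by -1.05 ± 0.17 (adjusted p = 0.00291). FADS1 was at 102, 114 and 96.5 CPM, at 55.6, 66.6 and 81.3 with hairpin 1 and at 63.6, 54.9 and 46.9 with hairpin 2. Both hairpins lay below scramble, and the change passed for hairpin 2 (-0.94 ± 0.19, adjusted p = 0.00835) and not for hairpin 1 (-0.64 ± 0.18, adjusted p = 0.128). HSD17B7, lower by -0.77 ± 0.21, has near-identical pseudogene copies, so its counts are uncertain.

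Between the hairpins of SKNO1, 14 members were lower with hairpin 2 and none higher, where 5% of all genes were lower and 4.52% higher. MVK differed by -1.69 ± 0.18, MSMO1 by -1.93 ± 0.36, FDPS by -1.12 ± 0.17 and SCD by -1.08 ± 0.17. TM7SF2 stood at 10.1, 9.76 and 12.3 CPM in scramble, at 16.1, 13.1 and 14.6 with hairpin 1 and at 8.52, 7.42 and 6.81 with hairpin 2. The groups did not overlap, and the hairpins differed by -0.95 ± 0.17 (adjusted p = 0.00512). FADS2 was at 210, 255 and 217 CPM, at 296, 265 and 319 with hairpin 1 and at 185, 176 and 171 with hairpin 2. Its order was the same, with a hairpin difference of -0.73 ± 0.15 (adjusted p = 0.0107). The other 8 were ACAT2, MVD, NSDHL, EBP, DHCR7, SREBF2, FASN and ELOVL6. The count of 12 against scramble was 6 without scramble replicate 1, 7 without scramble replicate 2, and 6, 5 and 6 without hairpin 2 replicate 1, 2 and 3. The count of 14 was 9 without hairpin 1 replicate 3 and 8, 5 and 6 without hairpin 2 replicate 1, 2 and 3.

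**Figure D3:**
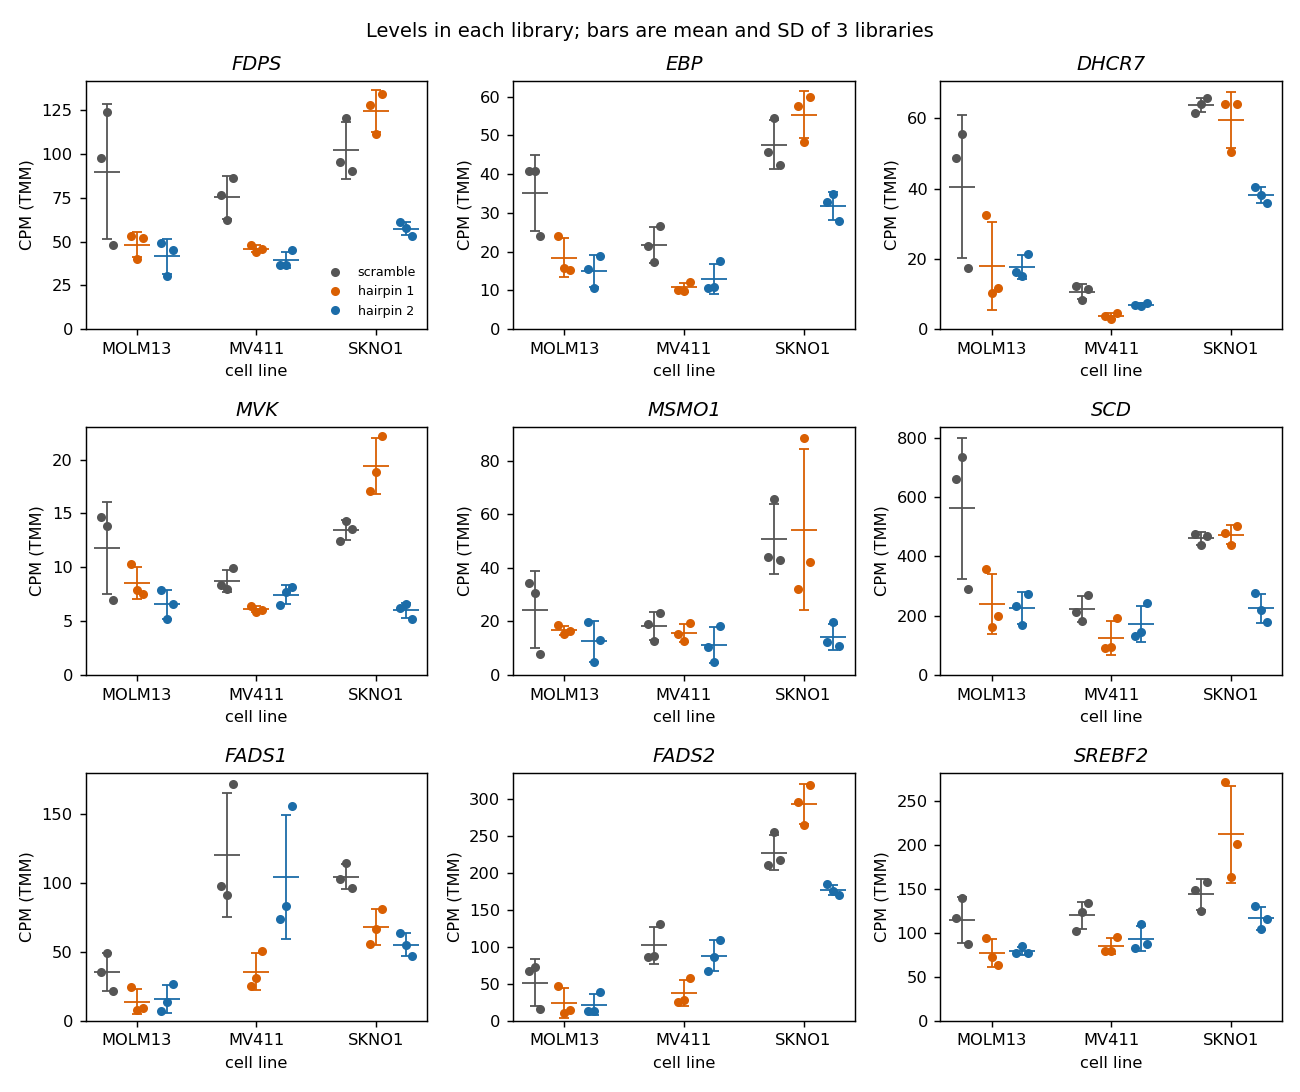
Levels in CPM (vertical axes, from 0) of 9 genes in each library by cell line (horizontal axes), with grey for scramble, orange for hairpin 1 and blue for hairpin 2; points are libraries and bars the mean ± SD of 3. In MV411 the hairpin 1 points of FADS1 (24.9, 31 and 50.9) lie below the others, and in SKNO1 the hairpin 2 points of MVK (6.19, 6.6 and 5.23) do.

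Without the replicate block, the members that differed between hairpins were lower with hairpin 1 in MV411 and with hairpin 2 in SKNO1. In MOLM13 no member differed between the hairpins in edgeR or DESeq2, none had an unadjusted p under 0.05, and 0% of all genes passed. CARM1 was lower with hairpin 2 than with hairpin 1 in MV411 (-1.02 ± 0.18, adjusted p = 0.00455) and in SKNO1 (-1.45 ± 0.20, adjusted p = 0.000957). The 14 members that differed in SKNO1 were lower where CARM1 was lower, and the 7 that differed in MV411 were higher. Other members of MV411 did not share that order: 7 of the 31 had negative values, and TM7SF2 was lower with hairpin 2 under the replicate block (-0.58, adjusted p = 0.0336). A test of the hairpin difference between lines was added after the data were seen. Its value was negative for all 31 members in SKNO1 relative to MV411, with a median of -0.95 beside -0.009 over all genes tested. The share of all genes with a negative value is not given here, and all members were measured in the same libraries. The test passed for 1 member, where 0.16% of all genes were lower and 0.141% higher. That member was MVK, at -1.97 ± 0.31 (adjusted p = 0.00408). In MV411 its levels were 8.32, 8.01 and 9.94 CPM in scramble, 6.45, 5.84 and 6.08 with hairpin 1 and 6.46, 7.7 and 8.21 with hairpin 2. The hairpin 1 libraries were lowest there, whereas they were highest in SKNO1. The same edgeR test passed for no member between MOLM13 and MV411 or between MOLM13 and SKNO1, where 0.0941% and 0.165% of all genes passed. In these pairs 4 and 9 members had an unadjusted p under 0.05, and DESeq2 called 0 and 1. The shares of all genes by these measures are not given here.

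**Figure D4:**
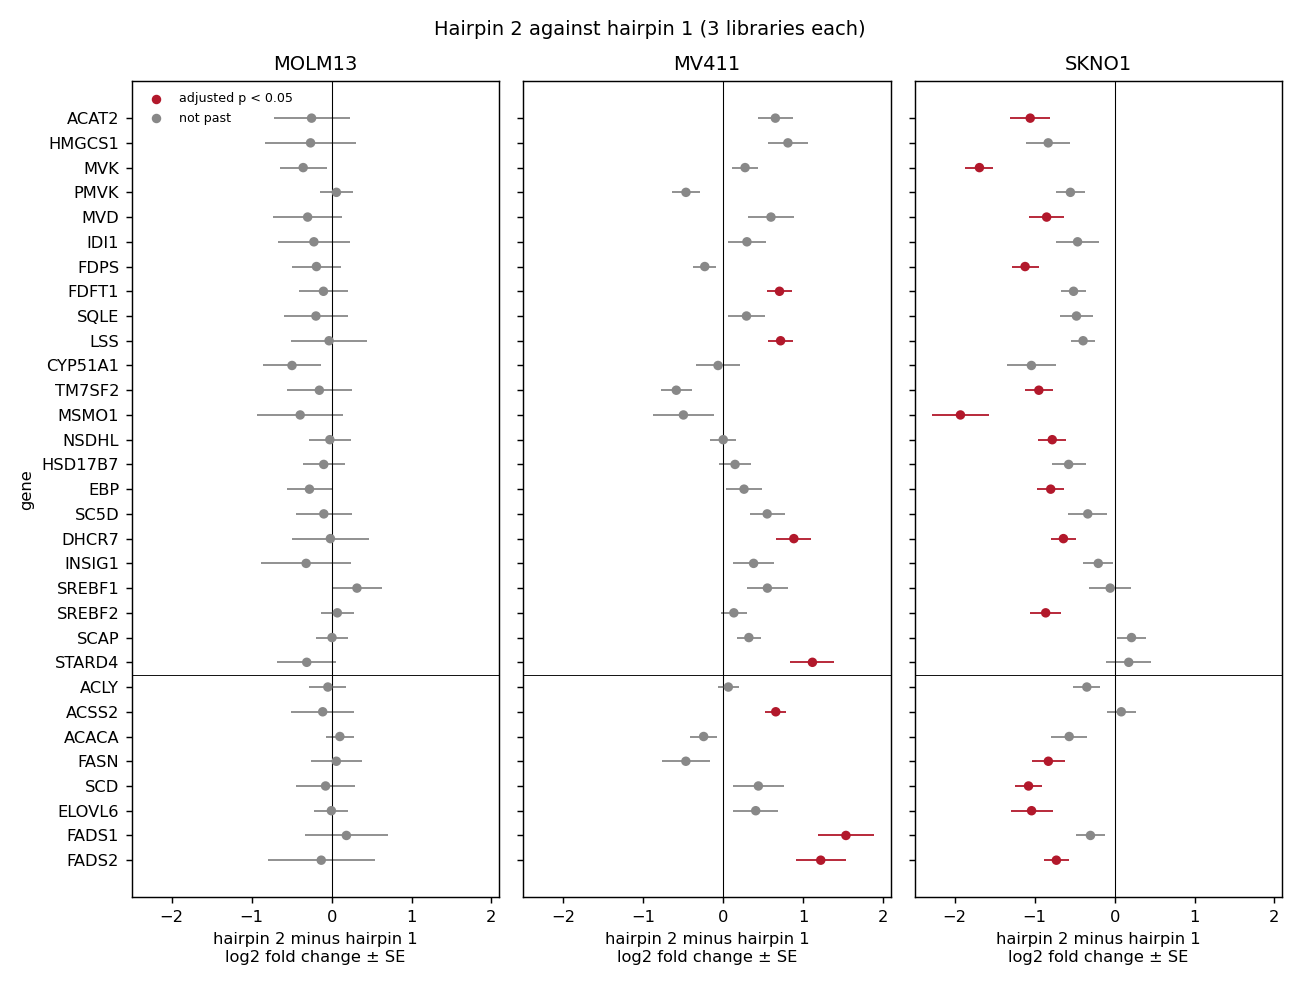
Log2 difference of hairpin 2 minus hairpin 1 with its SE (horizontal axis) for each of the 31 genes (vertical axis, sterol branch above the line) in each cell line, red where the adjusted p was under 0.05. The red points lie to the right of 0 in MV411 (7 genes) and to the left in SKNO1 (14 genes), and MOLM13 has none.

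Over the 3 lines combined, with line as a term, 10 members fell and none rose, where 10.9% of all genes fell, 11.3% rose and 22.2% changed in either direction. All 31 values were negative, with a median of -0.33 beside 0.05 over all genes. With the replicate block INSIG1 and ACSS2 were slightly positive, each at 0.01. The lines were not uniform: pooled over hairpins, 12 members were positive in SKNO1, with a median of -0.14, and 5 in MV411. EBP fell by 0.70 ± 0.15 (adjusted p = 0.00156), FDPS by 0.67 ± 0.16 (adjusted p = 0.00347), and SCD by 0.76 ± 0.19 (adjusted p = 0.00559). DHCR7 fell by 0.86 ± 0.19 (adjusted p = 0.00193). Its MOLM13 levels, not given above, were 48.6, 55.7 and 17.4 CPM in scramble, 32.5, 10.2 and 11.6 with hairpin 1 and 16.2, 15.2 and 21.5 with hairpin 2. FADS1 fell by 0.93 ± 0.24 (adjusted p = 0.00572), and in MOLM13 it was at 35.1, 49.5 and 21.4 CPM, at 24.4, 8.09 and 9.29 with hairpin 1 and at 6.97, 13.3 and 26.6 with hairpin 2. In both genes scramble replicate 3 lay within the knockdown range.

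SQLE, the squalene epoxidase and a rate-limiting step of sterol synthesis, fell by 0.65 ± 0.15 over the lines (adjusted p = 0.00337). In MOLM13 it stood at 122, 142 and 48.2 CPM in scramble, at 90.9, 53.5 and 52 with hairpin 1 and at 59.7, 33.3 and 76.4 with hairpin 2. In MV411 it was at 61.1, 47.7 and 74.5 CPM, at 34.1, 32.4 and 40.1, and at 42.8, 30.3 and 58.8. In SKNO1 it was at 142, 189 and 133 CPM, at 91.3, 135 and 140, and at 88.4, 93.5 and 81.3. Hairpin 1 lay wholly below scramble in MV411 and hairpin 2 in SKNO1, the pattern already seen. The other 4 that fell were HMGCS1, FDFT1, LSS and ACACA, of which ACACA did not pass with the replicate block (adjusted p = 0.0511). The count was 6 without MOLM13 scramble replicate 1 or 2. In edgeR with the filter, no replicate block and hairpins pooled, no member passed a test of the knockdown effect between lines. Of all genes 0% passed that edgeR test between MOLM13 and MV411, 0.936% between MOLM13 and SKNO1 and 0.56% between MV411 and SKNO1. In the same order, 2, 9 and 7 members had an unadjusted p under 0.05, and DESeq2 called 0, 2 and 0. The shares of all genes by these measures are not given here. The smallest adjusted p was that of FASN between MOLM13 and SKNO1 (0.058), at 1.61 ± 0.43, and with the replicate block that gene passed (1.56, adjusted p = 0.0338).

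In edgeR with the low-count filter and no replicate block, none of the 5 sterol sensing and transport genes passed against scramble, pooled or by hairpin, in any line. With the block SREBF2 passed in MOLM13 with hairpins pooled, and the 4 named above passed in MV411. SREBF2, which encodes the SREBP that mainly drives sterol genes, was at 117, 139 and 87.6 CPM in MOLM13 scramble, 94.8, 72.8 and 63.6 with hairpin 1 and 77, 84.7 and 77 with hairpin 2. Its pooled value there was -0.54 ± 0.17 (adjusted p = 0.0505; with the replicate block -0.52, adjusted p = 0.0383), all knockdown libraries but 1 lying below the lowest scramble library. In MV411 it was at 103, 124 and 134 CPM, at 79.5, 79.7 and 95.7, and at 82.9, 110 and 87.9, a pooled value of -0.44 ± 0.15 (adjusted p = 0.114). In SKNO1 it was at 149, 125 and 158 CPM, at 272, 164 and 201 with hairpin 1 and at 130, 105 and 115 with hairpin 2. Hairpin 1 lay above scramble and hairpin 2 did not, and the hairpins differed by -0.86 ± 0.19 (adjusted p = 0.0157).

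SREBF1, which encodes the SREBP forms tied to fatty acid genes, was at 89.4, 94.4 and 71.7 CPM in MOLM13 scramble, 79.2, 48 and 39.6 with hairpin 1 and 45.7, 96.6 and 61.5 with hairpin 2. In MV411 it was at 47.1, 82.3 and 58.8 CPM, at 35.2, 40.8 and 45.3, and at 50.4, 83.8 and 44.6. In SKNO1 it was at 44.5, 23.9 and 52.5 CPM, at 60.3, 34.9 and 51.6, and at 47.1, 50 and 44.4. Of these, only hairpin 1 in MV411 lay wholly below scramble, and the pooled values were -0.45 ± 0.26, -0.34 ± 0.26 and 0.25 ± 0.23 in the 3 lines, none past the threshold. INSIG1, itself a sterol-regulated gene, was at 163, 179 and 41.2 CPM in MOLM13 scramble, 140, 62.5 and 61.4 with hairpin 1 and 82.6, 29 and 98 with hairpin 2. In MV411 it was at 94.6, 71.3 and 117 CPM, at 109, 80.2 and 123, and at 126, 97.3 and 187. In SKNO1 it was at 60.1, 68.5 and 56.5 CPM, at 64.2, 90.1 and 94.9, and at 62.6, 78.1 and 76.1. Its groups overlapped in each line, with pooled values of -0.69 ± 0.46, 0.33 ± 0.24 and 0.32 ± 0.18.

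Other genes of the pathways were counted by the same test, to be read beside the 9.09% of all genes that fell and the 6.48% that rose in MOLM13. With hairpins pooled, 3.72% fell and 1.71% rose in MV411, and 0.0434% passed in either direction in SKNO1. Of 22 tested genes of other isoprenoid and sterol steps, 5 fell and none rose in MOLM13, 1 fell in MV411 and none passed in SKNO1 with hairpins pooled. TMEM97, a sterol-responsive partner of the transporter NPC1, fell in MOLM13 by 1.51 ± 0.22 and in MV411 by 0.75 ± 0.17, and with hairpin 2 in SKNO1 by 1.54 ± 0.24. PDSS1, which builds the tail of coenzyme Q, fell in MOLM13 by 0.93 ± 0.15. Of the other fatty acid synthesis and activation genes, 5 of 26 fell and 1 rose in MOLM13, the acyl-CoA synthetase ACSL1 at 0.56 ± 0.14. With hairpins pooled, 1 of 27 rose in MV411, the malic enzyme ME1 at 2.22 ± 0.56, and in SKNO1 0 of 30 passed. With hairpin 2 alone, 5 of 27 rose and 1 fell in MV411, where 8.38% of all genes rose and 10.2% fell. In SKNO1 2 of 30 fell with hairpin 2 and 0 rose, where 5.69% of all genes fell and 5.54% rose. Among 22 tested fatty acid oxidation genes, 2 fell and 1 rose in MOLM13, where HADH, a hydroxyacyl-CoA dehydrogenase, changed by -1.17 ± 0.15. HADH also fell with hairpin 2 in MV411 (-1.26 ± 0.14) and in SKNO1 (-0.64 ± 0.16). The 22 did not all follow it: in MV411 5 rose and 2 fell with hairpin 2, where 8.38% of all genes rose and 10.2% fell. With hairpin 1 there 3 rose and 1 fell, where 2.37% rose and 4.13% fell. In SKNO1 1 rose and 2 fell with hairpin 2, where 5.54% rose and 5.69% fell. Of the 7 LXR sterol efflux genes, 4 rose with hairpin 2 in MV411 and none with hairpin 1, where 8.38% and 2.37% of all genes rose. ABCA1, the cholesterol exporter, rose there by 1.49 ± 0.20 and ABCG1 by 2.33 ± 0.39. In SKNO1, ABCA1 rose with hairpin 2 by 1.09 ± 0.24 and fell with hairpin 1 by 1.23 ± 0.24.

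Proliferation genes were counted in the same comparisons. Of 17 such genes 17 fell in MOLM13, 16 in MV411 and none in SKNO1 with hairpins pooled, and in SKNO1 10 fell with hairpin 2 and none with hairpin 1. Of all genes 9.09% fell in MOLM13, 3.72% in MV411 and 5.69% with hairpin 2 in SKNO1. Between the MV411 hairpins, where 7 members differed, none of the 17 passed, with a median difference of 0.10. Between the SKNO1 hairpins 4 were lower with hairpin 2, where 5% of all genes were lower. The knockdown effect in SKNO1 differed from that in MOLM13 for 9 of the 17 and from that in MV411 for 8, where no member passed. Of all genes 0.936% and 0.56% passed these tests. Their part in the results was not tested. In these bulk libraries fewer cells in cycle and less RNA of a gene per cell cannot be told apart.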

How the data were processed

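Per the labels' protocols, RNA from 27 samples was extracted with Trizol and RNeasy columns, and stranded libraries were made from total RNA depleted of ribosomal RNA. STAR 2.5.3, RSEM (no version) and GRCh38.p7 are named in the submitters' processing notes. The deposited values are RSEM expected counts made by the authors, of which 30.39% of the non-zero values were not whole. RSEM splits reads between similar genes, and the strand setting is not given in the sources used here, so overlapping genes such as ACAT2 (33.9% of exon bases opposite SOD2-OT1) and CYP51A1 (79.4% shared with AC000120.2 on its own strand) are uncertain.

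Rounded counts were fitted in R 4.3.3 with edgeR 4.0.16 (filterByExpr, minimum count 10 and minimum total 15; TMM; quasi-likelihood F-test). Two-sided p-values were adjusted by Benjamini-Hochberg over all genes tested, with a threshold of 0.05, and SE is that of the log2 change. Each line was fitted alone, once with the 6 knockdown libraries pooled against 3 scramble libraries and once by hairpin. The combined fit had line as a term, and differences between lines were interaction terms in a fit of all 27 libraries. The pooled and combined fits, and those of the knockdown effect between lines, did not separate the hairpins. Differences between hairpins therefore entered the spread of those fits. DESeq2 1.42.0 and other settings were alternatives. The test was checked on simulated data. Gene positions and exon lengths came from GENCODE 29.

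The members and lists were chosen with earlier results of these data known. Values in every library are given for up to 6 members per comparison with the smallest p among those past the threshold, and for SREBF1, SREBF2, INSIG1 and SCD, and up to 3 genes per direction were named from each other list. No label says that replicates were separate cultures, so p-values measure only the spread between these samples, which may be technical. Replicate numbers come from the labels. Deviations from the group means correlated over 0.1 in every same-numbered pair only between MOLM13 scramble and hairpin 1 (0.135 to 0.287), and between MV411 scramble and hairpin 1 (0.14 to 0.192) or hairpin 2 (0.155 to 0.501). Pairs of unlike number reached 0.111, 0.014 and 0.258 in these comparisons, in that order.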

Additional observations from a re-analysis of the deposited data

Results flagged for a closer look

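The difference between hairpin 2 and hairpin 1 in MVK, the mevalonate kinase, was not the same in 2 lines. In SKNO1 hairpin 2 stood below hairpin 1, and in MV411 slightly above it, and the interaction of hairpin with line was -1.97 on the log2 scale (edgeR, adjusted p = 0.00408). This test was added after the data were seen. MVK shares 306 exon bases, 4.72% of its exons, with MMAB on the opposite strand.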

How the results depend on the processing

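Counts below are members past the threshold of 31. The shares of all genes that passed under these settings are not given, so the counts show only how the calls moved. Over all settings no called member changed direction: of its repeats, 511 stayed past the threshold and 12 did not under another tool, scaling, filter or block, and 890 and 217 did so with 1 library left out. Scaling by RLE factors kept every count within 1.5 times. Without the low-count filter the counts were 13 for MOLM13 knockdown, 13 for its hairpin 1 and 19 for its hairpin 2, 13 and 8 for hairpins 1 and 2 of MV411, 3 for hairpin 1 of SKNO1, 16 and 17 for the scramble levels of MOLM13 against MV411 and SKNO1, and 1 for the knockdown effect between MOLM13 and SKNO1. With DESeq2 they were 10 for MOLM13 knockdown, 7 and 8 for its hairpins, 13 and 7 for those of MV411, 5 for hairpin 1 of SKNO1, 1 for SKNO1 knockdown and 2 for the knockdown effect between MOLM13 and SKNO1. With hairpins as separate groups they were 6 for MV411 knockdown, 1 for SKNO1 knockdown and 2 for that effect between MOLM13 and SKNO1. Without mitochondrial and structured RNAs, hairpin 2 of MOLM13 counted 3. For the hairpin difference between lines, added after the data were seen, no filter gave 4 and 2 for MOLM13 against MV411 and SKNO1 and 12 for MV411 against SKNO1, and DESeq2 gave 1 and 4 for the pairs with SKNO1. With the replicate block the counts were 13 and 14 for hairpins 1 and 2 of MV411, 13 for their difference, 2 for hairpin 2 of MOLM13, 2 for hairpin 1 of SKNO1, 1 for the knockdown effect between MOLM13 and SKNO1 and 2 for the hairpin difference between MV411 and SKNO1. The block moved no other count by over 1.5 times. It added IDI1 and SC5D for hairpin 2 of SKNO1, HMGCS1 and CYP51A1 for the hairpin difference there and ELOVL6 for that difference between MV411 and SKNO1. It ended the scramble differences of HSD17B7, EBP and ACACA between MOLM13 and MV411, PMVK and INSIG1 between MOLM13 and SKNO1, and FADS2 between MV411 and SKNO1. For scramble levels the block joined equal replicate numbers of different lines, whereas pairing was examined only within lines. With each library left out in turn, knockdown counted 0 to 13 in MOLM13, 1 to 4 in MV411, 0 to 0 in SKNO1 and 6 to 14 in the lines combined. Hairpin 1 counted 0 to 3, 1 to 12 and 0 to 1 in MOLM13, MV411 and SKNO1, hairpin 2 counted 0 to 5, 1 to 5 and 5 to 14, and their difference 0 to 0, 0 to 11 and 5 to 18. The knockdown effect counted 0 to 0 between MOLM13 and MV411, 0 to 1 between MOLM13 and SKNO1 and 0 to 0 between MV411 and SKNO1. Scramble levels gave 6 to 21, 7 to 14 and 12 to 19 for these pairs, and the hairpin difference 0 to 0, 0 to 1 and 1 to 2. The causes were not tested. Where a hairpin had 2 libraries left, its fit pooled the spread over groups. Depth did not keep any member from being tested.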
